A study of Mus musculus with 36 samples.

Results

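The mouse HoxD cluster was followed through 6 of its homeobox genes, Hoxd1, Hoxd3, Hoxd4, Hoxd8, Hoxd9 and Hoxd10, taken by gene symbol from the 51912 genes of the deposited tables. The study differentiated HM1 cells, a mouse embryonic stem cell line, first to a neuromesodermal progenitor state and then towards motor neurons, and measured polyadenylated RNA of the whole culture. The 3 day 0 libraries, labelled control, came from cells grown in 10 ng/ml bFGF, to which 5 µM CHIR99021 (a GSK3 inhibitor that activates Wnt signalling), 10 µM SB431542 (an inhibitor of Nodal and activin receptors) and 2 µM DMH1 (a BMP receptor inhibitor) were added for the last day. All later libraries came from cells moved at day 0 to 100 nM retinoic acid and 500 nM SAG, an agonist of the hedgehog transducer Smoothened, and were collected at days 0.5, 1, 1.5, 2, 2.5, 3, 3.5, 4, 5, 6 and 7. Each of the 12 time points had 3 libraries, 36 in all. Every culture had passed through the same progenitor step, and no culture without retinoic acid and SAG was sampled after day 0, so time in culture and treatment cannot be told apart. All cells came from the HM1 line. The labels call the 3 libraries of a time point biological replicates without saying whether they were separate cultures, so the p-values measure the spread between these libraries, which may be technical.

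Hox genes encode homeodomain transcription factors that give cells their position along the head-to-tail axis. In each cluster the genes lie in the order of the body levels at which they act, and genes at the 3′ end, such as Hoxd1, tend to be switched on before those towards the 5′ end. In the developing hindbrain and spinal cord, retinoic acid switches on mainly the 3′ genes, while FGF, Wnt and Cdx factors act on the 5′ genes, and the resulting Hox code divides motor neurons into columns and pools. Group 1 genes pattern the hindbrain, groups 3 and 4 act at the level of the caudal hindbrain and neck, and groups 8 to 10 act in the trunk and lumbar cord.

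On chromosome 2 (GRCm38, plus strand) Hoxd1 spans chr2:74762980-74765142. The start of Hoxd8 (chr2:74704615-74707933) lies 58.4 kb away on its 5′ side, that of Hoxd9 (chr2:74697727-74700208) 65.3 kb away and that of Hoxd10 (chr2:74691924-74695105) 71.1 kb away. Hoxd3 (chr2:74711927-74748442) and Hoxd4 (chr2:74711929-74729160) lie between Hoxd1 and Hoxd8 and share their first transcribed region in the GENCODE annotation. The promoters of the 4 members that reached 1 TPM in all 3 libraries of a time point are shown because these genes differed in when they changed. TPM is a measure of transcript abundance scaled to gene length and to the library's total. Each run is a RefSeq promoter window on GRCm38.p6, 250 bases before to 50 bases after the RefSeq gene start, and all 6 members had 1 such window. The RefSeq start of Hoxd4 lies 10.0 kb inside the GENCODE span given above, and that of Hoxd3 lies 66 bases inside. Capitals mark exact matches, on either strand, to AGGTCA, the core recognised by retinoic acid receptors, and to TTTATG, a core recognised by Cdx factors. The windows lie at chr2:74762730-74763029 for Hoxd1, chr2:74711743-74712042 for Hoxd3, chr2:74721728-74722027 for Hoxd4 and chr2:74704365-74704664 for Hoxd8, all on the plus strand.
Hoxd1: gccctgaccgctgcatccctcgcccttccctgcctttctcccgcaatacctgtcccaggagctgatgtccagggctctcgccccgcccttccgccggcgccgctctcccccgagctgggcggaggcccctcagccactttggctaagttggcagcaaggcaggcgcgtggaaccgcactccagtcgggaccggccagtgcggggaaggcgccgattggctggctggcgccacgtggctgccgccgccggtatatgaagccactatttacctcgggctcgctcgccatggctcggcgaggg
Hoxd3: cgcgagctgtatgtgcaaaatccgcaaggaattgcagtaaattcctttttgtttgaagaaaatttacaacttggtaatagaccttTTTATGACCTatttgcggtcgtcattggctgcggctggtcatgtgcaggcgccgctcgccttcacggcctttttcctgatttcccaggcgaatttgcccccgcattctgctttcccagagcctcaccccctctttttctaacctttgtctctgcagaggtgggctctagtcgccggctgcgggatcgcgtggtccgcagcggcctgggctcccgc
Hoxd4: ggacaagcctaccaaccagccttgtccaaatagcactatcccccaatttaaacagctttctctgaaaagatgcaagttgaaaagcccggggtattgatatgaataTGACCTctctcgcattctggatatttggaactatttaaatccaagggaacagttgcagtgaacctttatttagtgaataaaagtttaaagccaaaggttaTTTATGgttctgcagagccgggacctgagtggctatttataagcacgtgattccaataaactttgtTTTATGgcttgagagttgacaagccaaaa
Hoxd8: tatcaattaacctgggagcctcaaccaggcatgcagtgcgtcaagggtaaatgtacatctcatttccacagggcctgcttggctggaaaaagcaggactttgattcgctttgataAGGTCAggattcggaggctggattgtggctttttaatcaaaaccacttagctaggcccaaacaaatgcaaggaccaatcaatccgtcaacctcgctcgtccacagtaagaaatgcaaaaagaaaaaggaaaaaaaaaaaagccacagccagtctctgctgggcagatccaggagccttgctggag
AGGTCA matched once each in the windows of Hoxd3, Hoxd4, Hoxd8 and Hoxd10 and not in those of Hoxd1 and Hoxd9, and 16.26% of all 32851 promoter windows of this length held it. TTTATG matched at position -165 from the start in Hoxd3, where it shares 2 bases with the AGGTCA match on the other strand, and at positions -45 and 22 in Hoxd4, against 11.85% of all windows. The direct repeat of the AGGTCA core with 5 bases of spacer (in 3 of all windows) and TGATTNAT, a Hox and Pbx site (in 3.22%), matched in none of the 6, which says only that these letters are not in these windows. Base composition differed between the members: GC content was 69.7% in the Hoxd1 window, with 29 CpG dinucleotides, and 39.7% in the Hoxd4 window, with 4, around medians of 52.7% and 7 over all windows. The Hoxd3 window held 54.0% GC and 20 CpGs, and the Hoxd8 window 46.7% and 6.

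The library totals lay between 26567321 and 35757989 expected counts, and libraries of the same time point correlated at 0.9966 to 0.9984. Markers of the starting state and of the neural products named by the labels were present. The summed level of 5 caudal epiblast markers (T, Nkx1-2, Cdx2, Wnt3a and Fgf8) was 550 to 604 TPM at day 0 and 1.05 to 2.06 TPM at day 7. That of 5 neural progenitor markers (Sox1, Sox2, Pax6, Olig2 and Nkx6-1) was 59.1 to 64.8 TPM at day 0 and 630 to 643 TPM at day 1. That of 5 motor neuron markers (Mnx1, Isl1, Lhx3, Chat and Slc18a3) was highest at day 3, with 207 to 219 TPM, and 12.7 to 15.1 TPM at day 7.

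Retinoic acid and SAG were followed by early gains of 4 HoxD genes, by a fall of Hoxd1 after day 0.5, by gains of Hoxd3 and Hoxd4 that ended by day 2.5, and by a gain of Hoxd8 that went on into the last days (plots of the levels by day). Hoxd9 and Hoxd10 stayed under 1 TPM in every library. Hoxd10, with 34 counts in all 36 libraries together, did not pass the filter on low counts, so 5 of the 6 members were tested. A member is called changed where edgeR's quasi-likelihood test gave an adjusted p under 0.05 over all 17990 genes tested. RNA of the whole culture was measured, so fewer cells expressing a gene and less RNA per cell cannot be told apart.

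**Figure D1:**
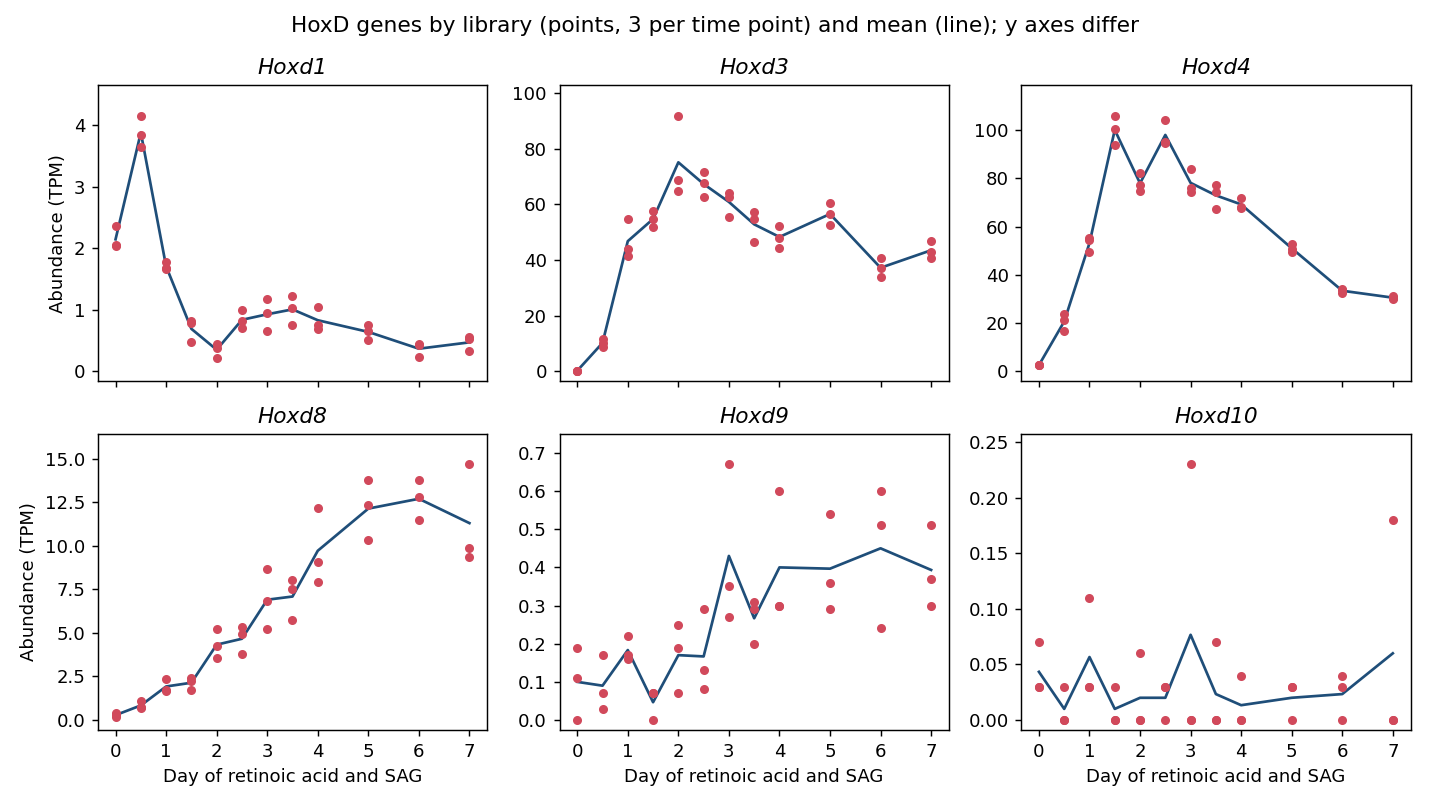
Abundance of the 6 HoxD genes in TPM (y axis, a separate scale for each gene) by day of retinoic acid and SAG (x axis); points are single libraries, 3 per time point, and lines join the means. Hoxd1 was highest at day 0.5, Hoxd3 at day 2, Hoxd4 at day 1.5 and Hoxd8 at day 6, while Hoxd9 did not exceed 0.67 TPM and Hoxd10 did not exceed 0.23 TPM.

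In the first step, from day 0 to day 0.5, 4 of the 5 tested members rose and none fell, while 27.6% of all genes tested were called higher and 26.7% lower. From day 0.5 to day 1, 3 members rose (Hoxd3, Hoxd4 and Hoxd8) and Hoxd1 fell, where 23.3% of genes were called higher and 24.3% lower. From day 1 to day 1.5, Hoxd3 and Hoxd4 rose and Hoxd1 fell, beside 27% of genes higher and 19.4% lower. From day 1.5 to day 2, Hoxd3 and Hoxd8 rose and Hoxd1 and Hoxd4 fell, beside 26.1% higher and 27.2% lower. From day 2 to day 2.5, Hoxd1 and Hoxd4 rose and none fell, beside 24.9% higher and 22.9% lower. Whether Hoxd3 fell in that step depended on the fit. Its log2 fold change of -0.22 (adjusted p = 0.0529 in edgeR) was called with DESeq2 (adjusted p = 0.0384) and with median-of-ratios scaling (0.0347). It was also called without the filter on low counts (0.000228), a fit that gave smaller values for Hoxd3 in other steps too. Leaving out replicate 2 or 3 of day 2 or replicate 3 of day 2.5 gave a call as well (0.00731, 0.0293 and 0.0376). It was not called with limma, and over left-out libraries the log2 fold change was between -0.32 and -0.064. From day 2.5 to day 3 Hoxd8 rose and Hoxd4 fell, beside 18.1% higher and 16.3% lower. Calls thus went in both directions within the cluster in 4 of these 6 steps. No member was called from day 3 to day 3.5 (40.8% of genes called), from day 3.5 to day 4 (40.2%) or from day 6 to day 7 (20.3%). At an unadjusted p under 0.05, Hoxd3 passed in each of the first 2 of these steps and no member in the last, and DESeq2 and limma called no member in any of them. From day 4 to day 5 Hoxd4 fell and none rose, beside 21.2% of genes higher and 16.8% lower, and from day 5 to day 6 Hoxd1, Hoxd3 and Hoxd4 fell and none rose, beside 24.1% higher and 26.4% lower. Over the later course, from day 3 to day 7, Hoxd8 rose and Hoxd1, Hoxd3 and Hoxd4 fell, where 36.2% of genes were called higher and 36.1% lower. The median log2 fold change of the 5 tested members was 0.90 in the first step and -0.79 from day 3 to day 7, against medians over all genes of 0 and -0.01.

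**Figure D2:**
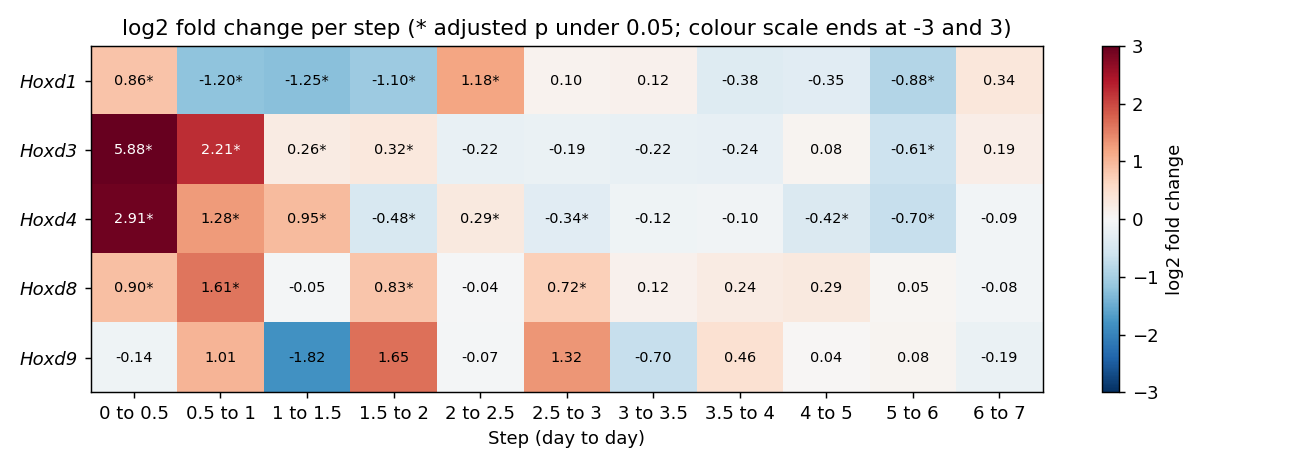
log2 fold change between neighbouring time points (columns, from the earlier to the later day) for the 5 tested HoxD genes (rows), from edgeR on the counts; asterisks mark an adjusted p under 0.05, and the colour scale ends at -3 and 3, below the first value of Hoxd3 (5.88). Most calls stand in the first 6 steps, Hoxd8 is called only for rises, and Hoxd9 has no call.

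Hoxd1, the most 3′ gene of the cluster, was already present at day 0 and was the only member whose peak was at day 0.5. Its level was 2.05, 2.03 and 2.36 TPM at day 0 and 4.16, 3.65 and 3.84 TPM at day 0.5, so the libraries did not overlap. In counts this was a log2 fold change of 0.86 (approximate SE 0.20, adjusted p = 0.000402). The level was 1.66, 1.68 and 1.78 TPM at day 1, then 0.81, 0.79 and 0.47 TPM at day 1.5, and 0.22, 0.45 and 0.38 TPM at day 2. The 3 steps from day 0.5 to day 2 had log2 fold changes of -1.20, -1.25 and -1.10 (adjusted p = 8.11e-06, 3.93e-05 and 0.00174). A smaller second rise followed, to 0.70, 0.99 and 0.82 TPM at day 2.5, above every library of day 2 (log2 fold change 1.18, adjusted p = 0.000899). The mean was 1.01 ± 0.24 TPM (SD, n = 3) at day 3.5 and 0.37 ± 0.12 TPM at day 6. The fall from day 5 to day 6 (log2 fold change -0.88, adjusted p = 0.0178) was not called without replicate 1 of day 5 (adjusted p = 0.0850) or replicate 2 of day 6 (adjusted p = 0.110). Against day 0, Hoxd1 was higher at day 0.5, was not called at day 1 (log2 fold change -0.34, adjusted p = 0.160), and was lower at each of the 9 later time points. At day 2 the gene had 6, 16 and 13 counts per library, so the levels after day 1.5 rest on few reads.

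Hoxd3 and Hoxd4, neighbours whose products act in the caudal hindbrain and upper spinal cord, gave the highest levels of the cluster. Hoxd3 started near the bottom of detection. Its level was 0.20, 0.13 and 0.21 TPM at day 0, from 10.46, 5.95 and 7.04 expected counts, and 9.98, 8.81 and 11.73 TPM at day 0.5. The log2 fold change of this step was 5.88 (approximate SE 0.27, adjusted p = 7.09e-19), the largest first-step change of the 5 tested members. At day 1 the level was 54.57, 41.56 and 44.08 TPM (log2 fold change from day 0.5 of 2.21, adjusted p = 1.37e-17). The mean was highest at day 2, at 75.1 ± 14.7 TPM, with 91.85 TPM in replicate 1 and 64.65 and 68.68 TPM in the others. Without replicate 1 of day 2 the highest mean moved to day 2.5, and the step from day 1.5 to day 2 (log2 fold change 0.32, adjusted p = 0.00427) was not called (adjusted p = 0.0581). The step from day 1 to day 1.5 (log2 fold change 0.26, adjusted p = 0.0252) was not called on leaving out replicate 2 or 3 of day 1 or replicate 1 or 3 of day 1.5, with limma, or in a fit of those 6 libraries alone. The level then moved between 37.2 and 67.3 TPM as means, and was 43.5 ± 3.2 TPM at day 7.

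Hoxd4 was present at day 0, with 2.41, 2.73 and 2.48 TPM. It rose to 23.67, 21.44 and 16.81 TPM at day 0.5 (log2 fold change 2.91, approximate SE 0.12, adjusted p = 2.49e-20). It rose again to 55.43, 49.62 and 54.49 TPM at day 1 (1.28, adjusted p = 4.40e-15) and to 106.08, 93.97 and 100.37 TPM at day 1.5 (0.95, adjusted p = 8.08e-13). The level was then lower at day 2, with 77.13, 82.15 and 74.70 TPM, higher again at day 2.5, with 95.30, 104.14 and 94.73 TPM, and lower at day 3, with 76.19, 74.24 and 84.08 TPM. Neighbouring time points did not overlap in any of these 3 steps, whose log2 fold changes were -0.48, 0.29 and -0.34 (adjusted p = 4.80e-07, 0.000781 and 0.000251). Mtx2, a flanking gene with whole counts, had means of 89.7, 77.7, 98.5 and 92.8 TPM at days 1.5, 2, 2.5 and 3. Those of Lnpk, also flanking, were 23.6, 23.7, 27.5 and 27.7 TPM. Of 10 HoxB genes, 1 rose and 3 fell in the first of these steps. In the second 7 rose and 1 fell, and in the third 0 rose and 5 fell. Of 6 tested HoxC genes, 2, 3 and 4 rose and 0 fell. The shares over all genes are given above, and a cause common to these genes was not tested. From day 3 the mean of Hoxd4 declined to 51.03 ± 1.71 TPM at day 5, 33.4 ± 0.8 TPM at day 6 and 30.5 ± 0.7 TPM at day 7. This was a log2 fold change of -1.44 from day 3 to day 7 (adjusted p = 5.26e-18). Over the same interval Hoxd3 changed by -0.79 (adjusted p = 7.89e-09). Endothelial markers (Pecam1, Cdh5, Kdr, Tek, Tie1, Esam and Emcn) were read over the same course. The part of endothelial cells in the result was not tested. The median summed level of these markers was 12.47 TPM at day 0.5, 33.15 TPM at day 1 and 31.43 TPM at day 1.5. Hoxd3 and Hoxd4 were called higher in both steps. It was 69.06 TPM at day 2.5 and 108.5 TPM at day 3. In that step Hoxd4 fell and Hoxd3 was not called (adjusted p = 0.123 in edgeR). Of the endothelial markers, 6 of 7 were called higher at day 0.5, beside 27.6% of all genes. From day 3 to day 7, 6 of 7 were called lower, beside 36.1% of all genes. Their summed level was 3.98 to 4.75 TPM at day 0, with Tie1 under 0.1 TPM in all 3 libraries, 12.4 to 17.2 TPM at day 0.5, 96.8 to 113 TPM at day 3 and 49.0 to 53.8 TPM at day 7. At day 2, replicate 1, the library with the highest Hoxd3 level, also had the highest summed endothelial level, 88.3 TPM against 53.3 and 62.0 TPM, and the highest summed level of 6 blood markers, 58.2 TPM against 29.0 and 34.7 TPM. The 5 neural progenitor markers were all called higher at day 0.5. From day 3 to day 7, 4 of them were called lower and none higher. Their summed level was 469 to 484 TPM at day 3 and 293 to 309 TPM at day 7. The motor neuron markers fell from day 3 to day 7 as well, with all 5 called lower, beside 36.1% of all genes. The part of progenitors and motor neurons in the result was not tested.

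How reads were divided at this locus bears on every value of Hoxd3 and Hoxd4. A further annotated gene, Gm28230 (chr2:74726728-74747918, plus strand), runs from Hoxd4 into Hoxd3, and 95.8% of its exon bases lie in exons of those 2 genes. Conversely, 53.1% of the exon bases of Hoxd3 and 39.1% of those of Hoxd4 are shared with Gm28230, and Hoxd3 and Hoxd4 share 388 bases with each other. The expected counts of all 3 genes were not whole numbers in any of the 36 libraries, whereas those of Hoxd1, Hoxd8, Hoxd9 and Hoxd10 were whole in every library. Of the counts given to the 3 genes together, Gm28230 took 34.9% ± 3.6 (SD, n = 3) at day 0 and 17.8% ± 0.4 at day 1.5. Summed over the 3 genes, the level was 3.45 ± 0.26 TPM at day 0, 38.0 ± 2.6 TPM at day 0.5, 113 ± 11 TPM at day 1, 172 ± 10 TPM at day 1.5, 175 ± 15 TPM at day 2 and 190 ± 6 TPM at day 2.5. The summed counts rose in each of the first 3 steps, with log2 fold changes of 3.51, 1.53 and 0.56 (adjusted p = 3.28e-25, 5.98e-19 and 7.34e-09). They were not called from day 1.5 to day 2 (log2 fold change -0.00010, adjusted p = 1) or from day 2 to day 2.5 (0.03, adjusted p = 0.758). The alternation of Hoxd4 between days 1.5 and 2.5 was therefore not seen in the sum, in which the opposite steps of Hoxd3 are included. The sum fell from day 2.5 to day 3 (log2 fold change -0.17, adjusted p = 0.0326), and the matching fall of Hoxd4 was not called when the Gm28230 counts were added to it (adjusted p = 0.0718). From day 3 to day 7 the sum fell by 1.00 on the log2 scale (adjusted p = 1.30e-15). The antisense gene Hoxd3os1 overlaps Hoxd3 and Hoxd4 by 347 exon bases, and its expected counts were whole numbers in all 36 libraries. Whether the counting used strand is not given in the sources used here and was not tested.

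**Figure D3:**
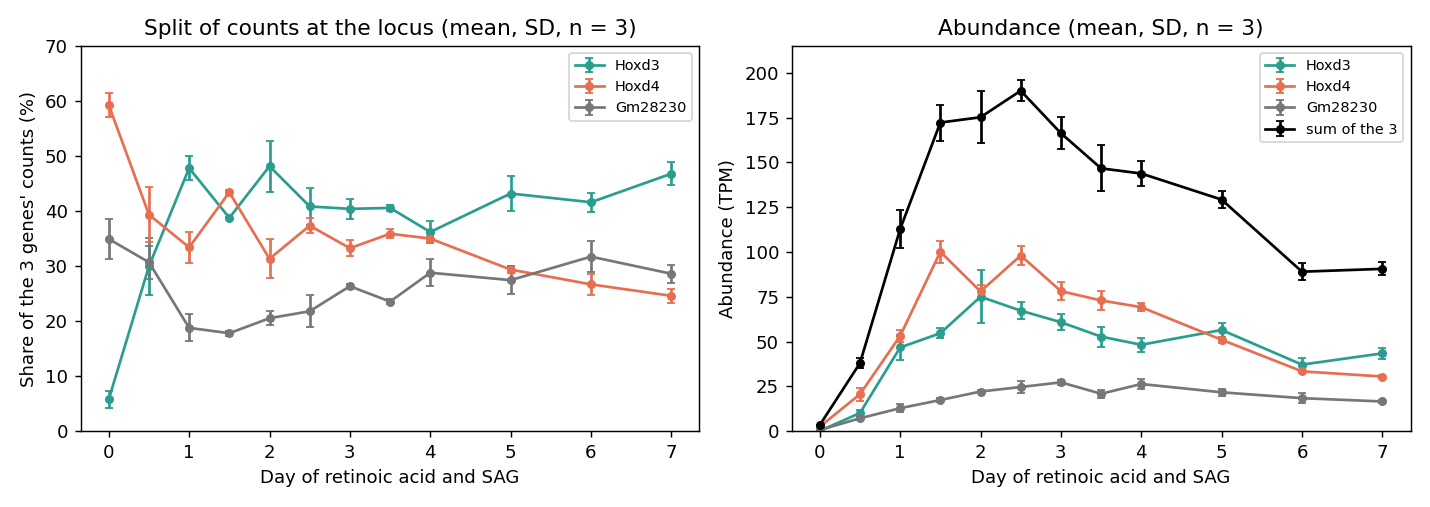
Left, share of the counts of Hoxd3, Hoxd4 and the overlapping Gm28230 given to each (y axis, percent) by day (x axis); right, their abundance and its sum in TPM by day; points are means of 3 libraries and bars are SD. Hoxd4 held 59.3% of the counts at day 0 and 24.6% at day 7, and the sum was between 172 and 190 TPM from day 1.5 to day 2.5.

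Within the pair the balance changed over the course. The ratio of Hoxd3 to Hoxd4 TPM was 0.072 ± 0.021 (SD, n = 3) at day 0, 0.51 ± 0.16 at day 0.5, 0.88 ± 0.09 at day 1, 0.55 ± 0.004 at day 1.5, 0.97 ± 0.21 at day 2 and 0.69 ± 0.06 at day 2.5. After moving up and down in this way it was 0.70 ± 0.04 at day 4, 1.11 ± 0.08 at day 5 and 1.42 ± 0.11 at day 7. Hoxd4 had the highest mean of the cluster at 9 of the 12 time points, from day 0 to day 4, and Hoxd3 at the other 3. Their libraries overlapped at days 1, 2, 5 and 6, so their order is not resolved there. The ratios were not tested.

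Hoxd8, a trunk-level gene whose exons overlap no other gene, rose later and lower than Hoxd3 and Hoxd4. Its level was 0.40, 0.16 and 0.28 TPM at day 0, 1.09, 0.68 and 0.74 TPM at day 0.5 and 2.37, 1.69 and 1.71 TPM at day 1. The first step had a log2 fold change of 0.90 (approximate SE 0.29, adjusted p = 0.00897), which was not called without replicate 2 of day 0 (adjusted p = 0.0773), and the second 1.61 (adjusted p = 7.86e-08). The level was 1.75, 2.41 and 2.26 TPM at day 1.5, overlapping day 1, and 3.55, 4.22 and 5.20 TPM at day 2, above every library of day 1.5 (log2 fold change from day 1.5 of 0.83, adjusted p = 3.45e-05). It was 5.31, 4.92 and 3.76 TPM at day 2.5, again overlapping the time point before, and 6.85, 5.21 and 8.65 TPM at day 3 (log2 fold change from day 2.5 of 0.72, adjusted p = 0.000127). The steps from day 1 to day 1.5 (log2 fold change -0.05, adjusted p = 0.836) and from day 2 to day 2.5 (-0.04, adjusted p = 0.8665) were not called, so the called rises fell on the steps that end at days 0.5, 1, 2 and 3. No later single step was called, but the level went on to 12.7 ± 1.2 TPM at day 6 and was 11.3 ± 2.9 TPM at day 7, and day 7 was higher than day 3 (log2 fold change 0.61, adjusted p = 8.28e-05). Over those days 36.2% of all genes were called higher and 36.1% lower. Of 5 neuron markers (Tubb3, Elavl3, Stmn2, Snap25 and Map2) 4 were called higher and none lower. Their summed level was 1566 to 1641 TPM at day 3 and 2280 to 2455 TPM at day 7. Of the 5 tested markers of lateral mesoderm and limb, 3 were called higher and 1 lower. The summed level over 6 such markers was 9.32 to 12.7 TPM at day 3 and 39.6 to 42.7 TPM at day 7. Tbx5 was under 0.1 TPM in all 3 libraries of day 3. The summed level of 7 paraxial mesoderm markers went from 13.9 to 20.1 TPM at day 3 to between 36.7 and 40.1 TPM at day 7, with 2 of 6 tested called higher, 3 lower and Msgn1 under 0.1 TPM at both. The part of neurons or of mesodermal cells in the Hoxd8 result was not tested. The ratio of TPM to CPM, the count scaled to the library total, varied from 0.652 to 1.31 between libraries for Hoxd8, against 0.924 to 1.06 for Hoxd1, so its fold changes in counts and in TPM differ.

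Hoxd9 and Hoxd10, the 2 most 5′ members, which act from the lower trunk to the lumbar cord, were near the limit of detection throughout. Hoxd9 had 0, 4 and 7 counts at day 0, 10, 11 and 24 at day 3 and 13, 10 and 17 at day 7, and its highest library was at 0.67 TPM. No step of Hoxd9 was called. Against day 0 it was called higher at days 3, 4, 5, 6 and 7, with log2 fold changes of 1.95, 1.71, 1.75, 1.83 and 1.64 (adjusted p = 0.00529, 0.0150, 0.0118, 0.00788 and 0.0174), and at day 3, 39.2% of all genes were called higher than day 0. All 5 calls were lost without replicate 1 of day 0, the library with 0 counts (adjusted p between 0.0511 and 0.132). Hoxd10 had between 0 and 6 counts per library and was at 0 in 17 of the 36. A count of 0 allows up to 3 counts, so no time course of Hoxd10 was detectable at this depth, and no comparison of it was called when the filter on low counts was dropped.

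Onset was read in several ways, and the order along the cluster depended on which was used. By the first time point at which all 3 libraries were at or over 1 TPM, Hoxd1 and Hoxd4 were on at day 0, Hoxd3 at day 0.5 and Hoxd8 at day 1, and Hoxd9 and Hoxd10 never reached it. By the first time point called higher than day 0, Hoxd1, Hoxd3, Hoxd4 and Hoxd8 all stood at day 0.5 and Hoxd9 at day 3. By the first time point at 50% of the gene's highest mean, Hoxd1 stood at day 0, Hoxd3 and Hoxd4 at day 1, and Hoxd8 and Hoxd9 at day 3. The peak came at day 0.5 for Hoxd1, day 1.5 for Hoxd4, day 2 for Hoxd3 and day 6 for Hoxd8, in which Hoxd3 and Hoxd4 are not resolved, since the highest mean of Hoxd4 moved to day 2.5 without replicate 1 of day 1.5. The peak of Hoxd8 is not resolved either, since its libraries overlapped between days 5, 6 and 7 and its highest mean moved to day 5 without replicate 2 of that day. At day 7 against day 0, 4 of the 5 tested members were higher and Hoxd1 was lower (log2 fold change -2.55), where 44.1% of genes were called higher and 41.2% lower.

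By share of the summed TPM of the 6 members, the cluster moved from Hoxd1 and Hoxd4 to Hoxd3, Hoxd4 and Hoxd8. Hoxd1 made up 40.5% ± 1.9 (SD, n = 3) at day 0 and 0.54% ± 0.14 at day 7. Hoxd8 made up 1.37% ± 0.29 at day 1.5 and 15.1% ± 0.7 at day 6. Of 60 pairs of members next to each other in level at a time point, 15 overlapped between libraries. Apart from Hoxd3 and Hoxd4, these were Hoxd8 and Hoxd1 at day 1 and pairs that held Hoxd9 or a member at day 0 below 1 TPM.

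The rest of the cluster gave low levels or other courses. Hoxd13, at the 5′ end, had 0.71 ± 0.17 TPM at day 0 and 0.12 ± 0.03 TPM at day 7 (log2 fold change -2.94, adjusted p = 5.13e-07), while Hoxd11 and Hoxd12 did not exceed 3 counts in any library. Hoxd3os1, transcribed from the opposite strand across Hoxd8 and the start of Hoxd3, rose from 0.12 ± 0.16 TPM at day 0 to 21.3 ± 1.7 TPM at day 4, and was at 17.7 ± 1.7 TPM at day 3 and 9.34 ± 1.15 TPM at day 7. Its counts fell further over those days than its TPM, from a mean of 412 to 78.7 per library (log2 fold change in counts of -2.52, adjusted p = 2.62e-14), so the size of this fall depends on the scale. Haglr, a noncoding RNA between Hoxd1 and Hoxd3 on the minus strand, was at 5.40 ± 0.52 TPM at day 0 and 1.06 ± 0.02 TPM at day 7 (log2 fold change -1.97, adjusted p = 5.33e-08). Of the 9 tested genes of the cluster and its flanks other than the members, 0 rose and 8 fell from day 3 to day 7, where 36.2% of all genes were called higher and 36.1% lower, with a median log2 fold change of -0.45. Those that fell were Hoxd3os1, Haglr, Lnpk, Hnrnpa3, Mtx2, Nfe2l2, Atf2 and Atp5g3, and Hoxd13 was not called (log2 fold change -0.32, adjusted p = 0.635).

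Paralogues, the genes of the same number in the other clusters, gave the levels against which the HoxD genes can be read, without a test between genes. In group 1, Hoxb1 (88.1 ± 7.6 TPM) was also highest at day 0.5, and Hoxd1 (3.88 ± 0.26 TPM) was lower. In group 3, Hoxa3 and Hoxb3 were highest at day 7, at 44.5 ± 1.7 and 174 ± 4 TPM, whereas Hoxd3 was at 43.5 TPM at day 7 and higher before. From day 3 to day 7, Hoxa3 and Hoxb3 had log2 fold changes of 0.58 and 0.60 (adjusted p = 4.57e-10 and 2.41e-11), against the fall of Hoxd3. In group 4, Hoxb4 was highest at day 2.5 (104 ± 13 TPM) and fell from day 3 to day 7, as Hoxd4 did, with a log2 fold change of -0.64 (adjusted p = 1.83e-09). Hoxa4 and Hoxc4 rose over those days (1.15 and 0.51, adjusted p = 8.43e-12 and 1.76e-10) and were highest at day 7, at 26.3 ± 1.6 and 178 ± 4 TPM. In group 8, Hoxb8 (387 ± 34 TPM), Hoxc8 (18.8 ± 4.2 TPM) and Hoxd8 all had their highest mean at day 6. Hoxc8 was at 18.3 ± 2.2 TPM at day 7, so its peak is not resolved, nor is that of Hoxd8. In group 9, Hoxb9 reached 237 ± 37 TPM, while Hoxa9 and Hoxc9 reached 1.25 ± 0.40 and 1.31 ± 0.14 TPM, and no group 10 gene had a mean over 0.21 TPM. From day 3 to day 7, 5 of 8 tested HoxA genes rose and 1 fell, 7 of 10 HoxB genes rose and 2 fell, and 4 of 6 HoxC genes rose and none fell, beside 1 rise and 3 falls among the 5 tested HoxD members and, over all genes, 36.2% called higher and 36.1% lower. The difference between clusters was not tested.

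**Figure D4:**
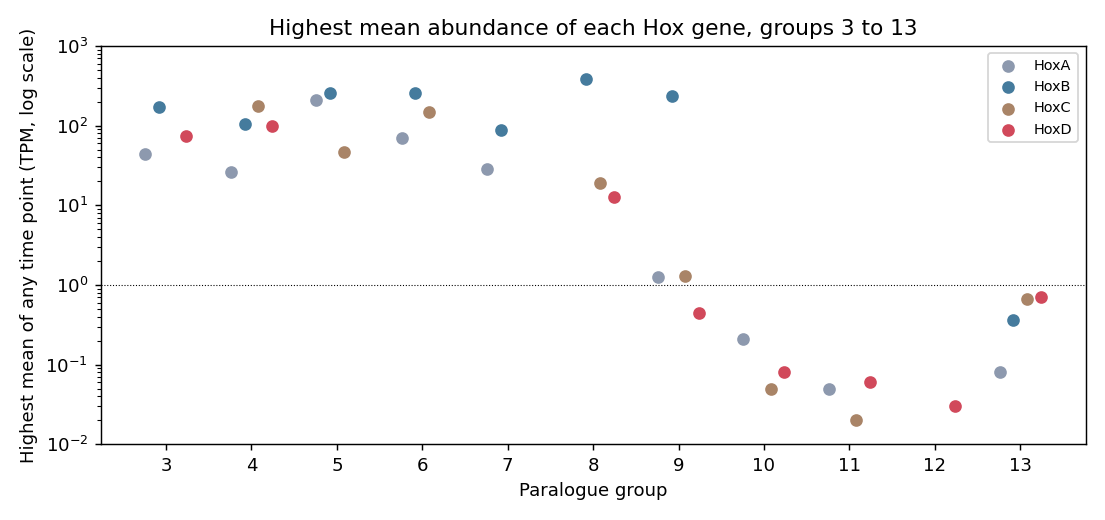
Highest mean of any time point (y axis, TPM, log scale; 3 libraries per mean) for each Hox gene of paralogue groups 3 to 13 by group (x axis) and cluster (colour); the dotted line marks 1 TPM, and Hoxc12, with a mean of 0, is not drawn. Hoxd3 and Hoxd4 stand near their paralogues, and only Hoxb9 passes 2 TPM in groups 9 and above.

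Genes that act with or upstream of Hox genes changed in the same first step, in which 4 HoxD members rose. In this step 27.6% of all genes tested were called higher and 26.7% lower, and a link between these genes and the HoxD members was not tested. Of 9 genes for Hox partner proteins, which bind DNA together with Hox factors, 6 rose and none fell (median log2 fold change 1.28, against 0 over all genes). Meis1 went from 0.88 ± 0.16 to 34.1 ± 3.0 TPM (log2 fold change 5.28), and others that rose were Meis2, Pknox2, Meis3 and Pbx2, with log2 fold changes of 3.74, 1.54, 1.35 and 1.28. Of 12 tested retinoid genes 10 rose and 2 fell (median 1.88). Those that rose included Rarb (log2 fold change 4.98), a receptor gene that retinoic acid itself induces, the retinoic acid-degrading enzymes Cyp26a1 (4.07) and Cyp26b1 (3.12), the synthesising enzyme Aldh1a2 (3.41), Dhrs3 (2.87), Crabp2 (2.70) and Rara (1.05), and Rarg and Rxrg fell (-1.44 and -1.37). Of 7 caudal regulators 1 rose and 6 fell (median -2.37), among them Cdx4, Wnt3a, Cdx2, T and Cdx1, with log2 fold changes of -2.80, -2.78, -2.50, -2.37 and -1.34. Cdx2 was at 240 ± 14 TPM at day 0, 42.5 ± 7.2 TPM at day 0.5 and 7.13 ± 0.67 TPM at day 1. All adjusted p of the genes named in this step were at or below 1.33e-09.

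The genes with the most similar course were sought by the correlation of mean log2(TPM + 1) over the 12 time points, among 11996 tested genes with a highest mean of at least 5 TPM. These correlations are a description, since the 12 means come from the same 36 libraries for every gene. The members were not held to the 5 TPM minimum. Hoxd1 and Hoxd9 did not reach it, with highest means of 3.88 and 0.45 TPM. The course of Hoxd9 rests on 0 to 24 counts per library. Closest to Hoxd1 were Utp23 (r = 0.99), Zfyve21 (0.93) and Eras (0.92), and all 4 other tested members correlated negatively with it, from -0.53 to -0.77. Closest to Hoxd3 were Fgfrl1 (0.985), Rnf165 (0.977) and Maml3 (0.972), and closest to Hoxd4 were Ackr3 (0.985), Peg12 (0.977) and Brd3 (0.975). Hoxd3 and Hoxd4, which share reads, correlated at 0.955 with each other, and 16 genes were at least as close to either of them. Closest to Hoxd8 were Dhrs1 (0.995), Fbxw11 (0.994) and Tmem266 (0.994), and among the closest to Hoxd9 were Rab3il1 (0.96) and Leprot (0.953). Hoxd8 and Hoxd9 correlated at 0.88, a value that 2909 genes reached with Hoxd8 and 1067 with Hoxd9.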

How the data were processed

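Polyadenylated RNA was sequenced from 36 libraries, and the submitters' processing notes name bcl2fastq 2.20.0, RSEM and GRCm38; aligner, annotation and strand setting: not given in the sources used here. The authors deposited expected counts per gene, of which 6.87% of values were not whole numbers as deposited, and TPM. Where single genes are described, a count within 0.005 of a whole number was taken as whole. Ensembl IDs were paired with symbols from GENCODE M21 names (51633 of 51912 matched). Expected counts were rounded and fitted with edgeR 4.0.16 in R 4.3.3 (TMM scaling, factors 0.924 to 1.06; filterByExpr; quasi-likelihood test, 24 residual degrees of freedom) over all 12 time points, with Benjamini-Hochberg adjustment over 17990 genes. An approximate SE was taken as the size of the fold change over the root of its F statistic. The fit was tested on simulated data. DESeq2 1.42.0, limma 3.58.1 on log2(TPM + 1) and log2(TPM + 0.1), other scalings and filters, a replicate block and leaving out each library were alternatives; adding Gm28230 to Hoxd3 or Hoxd4, and summing the 3, was chosen after seeing the data. Levels are TPM as deposited. The members and gene lists were chosen with earlier results of these data known. The named genes are the 6 members, their paralogues, partners or regulators changed at least 2-fold in a described comparison, and for each member the 3 genes of highest correlation. Some genes that this rule takes are not reported here.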

Additional observations from a re-analysis of the deposited data

How the results depend on the processing

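Direction and call held in 1177 of 1225 recomputed single-gene fold changes, 22 lost and 18 gained a call, and 8 changed sign, none of them called. These were Hoxd8 from day 1 to day 1.5 with limma (0.11 at a pseudocount of 1 and 0.15 at 0.1), Hoxd8 from day 2 to day 2.5 with limma (0.091 and 0.11) and without replicate 1 or 3 of day 2 (0.011 and 0.015; the range over all left-out libraries was -0.145 to 0.015), Hoxd4 from day 3.5 to day 4 with Gm28230 added (0.034) and Hoxd3 from day 4 to day 5 with Gm28230 added (-0.053). The cause was not tested.

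Counts of members called moved by more than 1.5 times, or from 0, as follows. From day 2.5 to day 3 (2 called) 4 were called without the filter, 1 with limma at a pseudocount of 0.1, and 1 with Gm28230 added to Hoxd4. From day 3 to day 3.5 (0 called) 1 was called without the filter, in a fit of the 6 libraries alone, and with Gm28230 added to Hoxd4 or to Hoxd3. From day 3.5 to day 4 (0 called) 1 was called without the filter and 2 in a fit of the 6 libraries alone, and leaving out libraries gave 0 to 1, with 1 without replicate 2 of day 3.5 or replicate 1 of day 4. From day 4 to day 5 (1 called) leaving out libraries gave 1 to 2, with 2 without replicate 2 of day 5, and from day 6 to day 7 (0 called) 1 was called without the filter. Smaller moves were 4 calls with DESeq2 and 2 with limma at a pseudocount of 1 from day 1 to day 1.5 (3 called), 3 with DESeq2 from day 2 to day 2.5 (2 called) and 3 with limma at a pseudocount of 1 from day 2.5 to day 3, and other settings moved counts by 1 in these and 3 further steps. The replicate block gave 1 call from day 3.5 to day 4 (Hoxd3, adjusted p = 0.0461) in place of 0. Libraries with the same replicate number at different time points had a median correlation of deviations of -8.92e-05 over 198 pairs, 44 of them over 0.1. With different numbers the median was -0.000478 over 396 pairs, 83 of them over 0.1. The numbers were therefore not taken to pair samples. Single pairs ranged from -0.475 to 0.393 with the same number and from -0.333 to 0.524 with different numbers. What such libraries shared was not tested.

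The first time point called higher than day 0 moved from day 0.5 to day 1 for Hoxd8 with a 2-fold minimum, and was day 0.5 to 1 over left-out libraries; for Hoxd9 it was day 3 to 4, and no time point was called without replicate 1 of day 0. The first time point at 75% of the highest mean, in place of 50%, was day 0.5 for Hoxd1 and day 2 for Hoxd3. It was day 1.5 for Hoxd4 and day 4 for Hoxd8. At 25% it was day 2 for Hoxd8 and day 1 for Hoxd9. At 50% it was day 3 to 3.5 for Hoxd8 over left-out libraries. Hoxd8 passed 0.5 TPM in all libraries at day 0.5 and 2 TPM at day 2. At 6 to 37 counts per library for Hoxd1 after day 1.5, and 0 to 24 for Hoxd9, small changes of these genes were not detectable at this depth.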
